A study of Mus musculus with 48 samples.

Results

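Toll-like receptors (TLRs) and their signalling partners were examined across the livers of 48 mice. The 10 genes were taken by symbol from the 29221 genes of the joined read-count tables: 8 receptors (Tlr1, Tlr2, Tlr3, Tlr4, Tlr5, Tlr7, Tlr8 and Tlr9), the co-receptor Cd14 and the adaptor Myd88. All 10 passed the filter on low counts in every comparison. RNA-seq measured whole liver, and each library came from 1 mouse.

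TLRs are receptors of innate immunity that recognise conserved microbial molecules. TLR1, TLR2, TLR4 and TLR5 act at the cell surface, where CD14 hands lipopolysaccharide and lipoproteins to TLR4 and TLR2, whereas TLR3, TLR7, TLR8 and TLR9 sense nucleic acids in endosomes. Most TLRs signal through MyD88 to NF-kappaB and interferon regulatory factors, while TLR3 uses TRIF (Ticam1). In the liver, Kupffer cells, recruited macrophages and other leukocytes carry much of this system, which meets bacterial products arriving from the gut in portal blood.

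All mice carried floxed Pparg alleles and received an adeno-associated virus after 16 weeks on diet. The virus labelled as making hepatocyte-specific knockouts was AAV8-TBG-Cre, in which the TBG promoter restricts Cre to hepatocytes, and the controls received AAV8-TBG-null. Males were fed a high fat (HF) diet for 34 weeks, or the HF diet for 18 weeks and then, for 16 weeks, a diet (HFCF) that adds cholesterol and fructose to the fat. Females had the same 2 regimens and also a low fat (LF) diet for 34 weeks. Each of the 4 male groups had 6 mice and each of the 6 female groups had 4. Age at the start of feeding is given only as adult, and macrophages and the other non-hepatocyte cells are not the target of the virus.

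Libraries held 15338239 to 22072884 reads on genes, and all 48 matched their labelled sex. Pparg RNA, the check of the genotype label, was not lower in the livers labelled knockout: it averaged 41.1 ± 14 CPM (read counts scaled to library size; mean ± SD, n = 6) against 34.2 ± 3.94 in HF males, and 45.8 ± 9.37 against 23.7 ± 1.46 (n = 4) in HFCF females. Reads over the deleted and the remaining exons are not separated in a count for the whole gene, so this check cannot decide the genotype. The term labelled knockout is therefore used, and every direction between the virus groups rests on the label alone. Pparg was called higher in labelled knockouts of HFCF males (log2 0.81 (SE 0.11, adjusted p 0.000805)) and HFCF females (0.97 (SE 0.13, adjusted p 0.0422)) by edgeR. Summed CPM of 4 hepatocyte markers (Alb, Apoa1, Ttr and Hnf4a) was 35655 to 113752 in every library, and the fat cell marker Adipoq reached at most 0.109 CPM. Some libraries stood apart from their group. Male HFCF control 1 had the lowest value of its group in all 7 of the members that responded most to diet (Tlr1, Tlr2, Tlr4, Tlr7, Tlr8, Tlr9 and Cd14), female HF labelled knockout 3 had the highest in all 7, and female HFCF labelled knockout 1 had the lowest in 6. Those 7 were grouped after their values were seen. The diet differences are given with and without these libraries where leaving them out changed a call.

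Levels between genes were compared per kilobase of gene length. Over all 48 libraries Myd88 (7.15 CPM per kb) and Cd14 (6.95) had the highest means. Tlr5 followed at 3.92, then Tlr2 at 2.85, Tlr3 at 2.24 and Tlr1 at 1.79 CPM per kb. Tlr7 (1.21), Tlr8 (1.13), Tlr9 (0.693) and Tlr4 (0.621) were lowest. The RNA of TLR4, the lipopolysaccharide receptor, was thus the scarcest of the 10 per kilobase over all libraries, and that of its co-receptor Cd14 among the most abundant. By group, Tlr9 was lower than Tlr4 in HF labelled knockouts of both sexes and in both LF female groups. In the other groups Tlr4 was the lowest. The lowest read count in any library was 7, for Tlr9, and the highest 741, for Cd14. Between members, the ratio of the highest to the lowest group mean also differed: Tlr9 ran from 0.971 to 4.74 CPM and Tlr1 from 2.97 to 12.2, but Myd88 only from 15.7 to 20.7.

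The promoters of 3 members are shown: Tlr2 and Tlr9, which both moved upward with the HFCF diet, and Tlr5, which differed by virus label in males. Tlr2 was called higher on the HFCF diet in 2 of 4 comparisons and Tlr9 in 3 of 4, and Tlr5 was called lower in labelled knockouts in males. The windows are RefSeq's, on GRCm38.p6, from 250 bases before to 50 after the start site, and were present for 7 of the 10 members in 8 windows. Positions count from the RefSeq start site as 0. The start of the gene counted can differ. For Tlr2 it is 83841767, upstream of the RefSeq start site, and for Tlr3 and Myd88 it lies outside the window. Capitals mark matches on either strand.
Tlr2 (chr3:83841559-83841858, minus strand; kappaB matches in capitals): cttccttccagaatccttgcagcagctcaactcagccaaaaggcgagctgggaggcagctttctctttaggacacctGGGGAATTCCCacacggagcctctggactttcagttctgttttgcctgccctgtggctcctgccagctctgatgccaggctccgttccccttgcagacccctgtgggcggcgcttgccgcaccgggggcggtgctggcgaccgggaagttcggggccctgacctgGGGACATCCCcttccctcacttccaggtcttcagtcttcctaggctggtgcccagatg
Tlr9 (chr9:106222348-106222647, plus strand; GAGGAAG and TGANTCA matches in capitals): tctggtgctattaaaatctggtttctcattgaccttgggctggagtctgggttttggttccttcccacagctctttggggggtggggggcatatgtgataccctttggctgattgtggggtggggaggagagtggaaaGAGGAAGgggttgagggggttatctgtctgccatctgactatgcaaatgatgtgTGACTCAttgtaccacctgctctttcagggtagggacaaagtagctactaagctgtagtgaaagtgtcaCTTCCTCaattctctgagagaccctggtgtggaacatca
Tlr5 (chr1:182954538-182954837, plus strand; AGGTCA match in capitals): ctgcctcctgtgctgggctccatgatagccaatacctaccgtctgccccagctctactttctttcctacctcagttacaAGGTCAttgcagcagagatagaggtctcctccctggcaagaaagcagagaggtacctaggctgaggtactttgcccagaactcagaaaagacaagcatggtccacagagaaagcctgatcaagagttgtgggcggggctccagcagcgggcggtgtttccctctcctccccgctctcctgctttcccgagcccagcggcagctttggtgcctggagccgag
The Tlr2 window held 3 matches to the kappaB motif, at -173, -172 and -8, of which the first 2 overlap each other; 4.51% of 32851 RefSeq promoters of the same length hold at least 1. It also held AGGTCA, the nuclear receptor half-site, on the opposite strand at -15 (left in lower case). The Tlr9 window held GAGGAAG, the core bound by the macrophage factor PU.1, at -112 and, on the opposite strand, at 11, a sequence found in 13.6% of promoters. An AP-1 match, TGANTCA, stood at -58, found in 7.81%, and a half-site in lower case at -221. The Tlr5 window held a single half-site, at -171, a sequence found in 16.3% of promoters. The DR1 element bound by PPAR-RXR pairs, a direct repeat of that half-site with a spacer of 1 base, occurred in no member window and in 0.0396% of promoters. The interferon-stimulated response element core (3.44% of promoters) matched Myd88 at -40, TTGCNNAA (10.8%) matched Tlr3 and Tlr8, and Tlr3 and Tlr1 had 1 further kappaB and GAGGAAG match. A match is a description of letters, and binding was not measured.

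**Figure D1:**
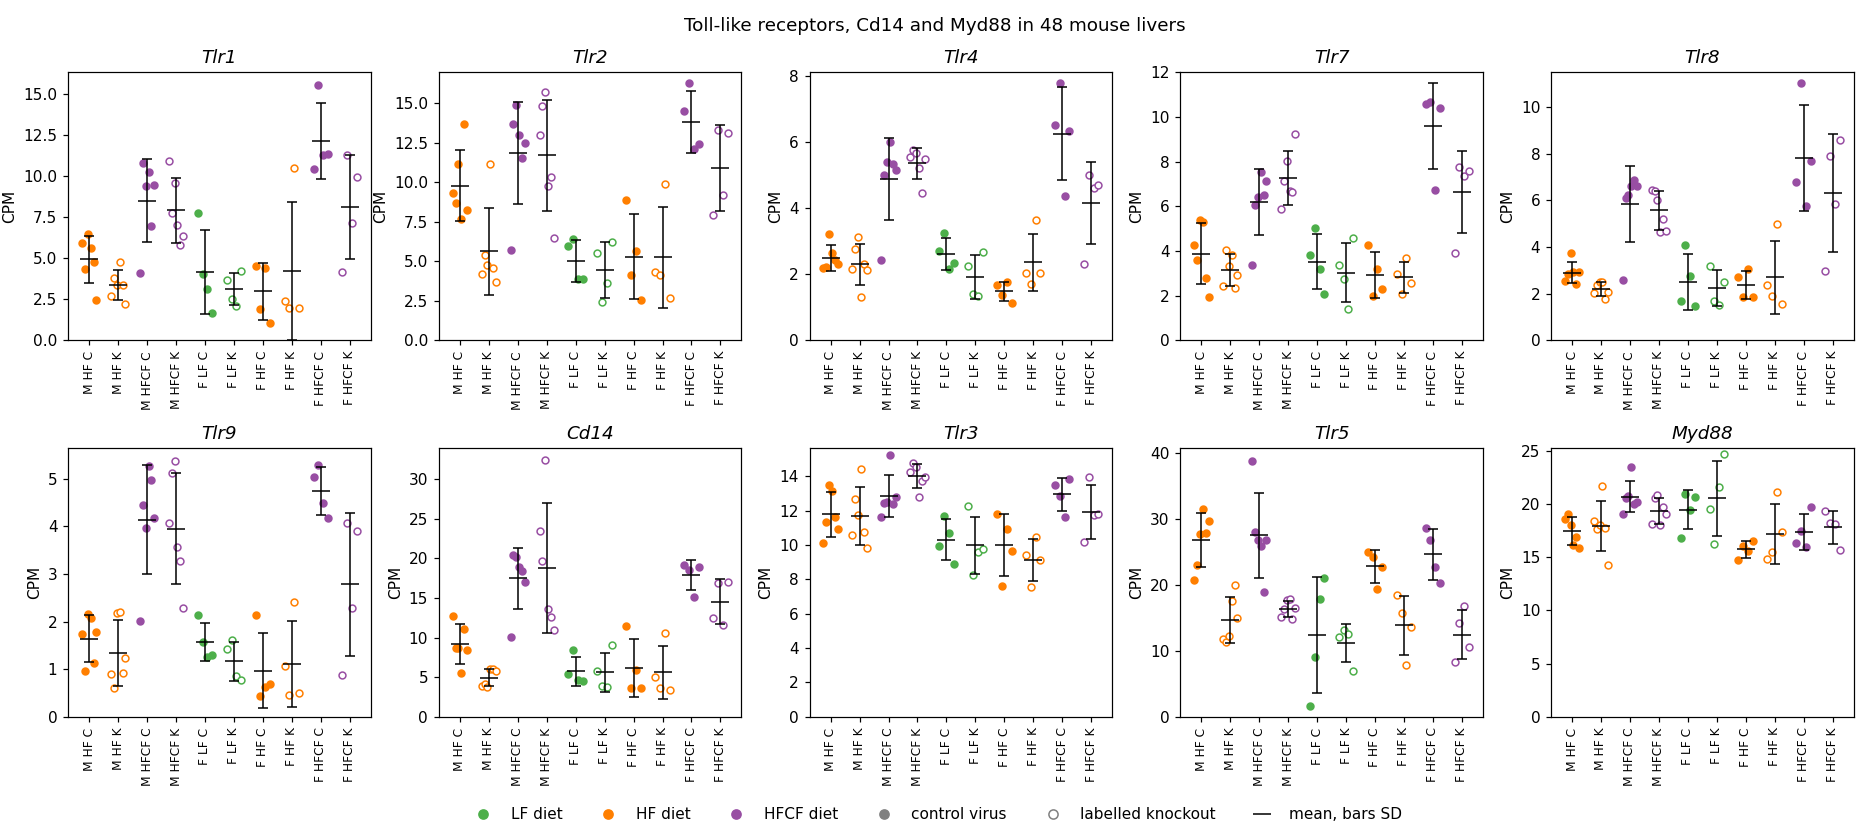
CPM of each of the 10 genes (vertical axes, linear, from 0) in the 10 groups (horizontal axes; M male, F female, C control virus, K labelled knockout). Points are livers, filled for control virus and open for labelled knockout, and bars give mean and SD. For every gene except Tlr5 and Myd88 the 4 HFCF groups have the 4 highest means, by a small step for Tlr3. Tlr5 means are 11.2 to 16.4 CPM in labelled knockouts, 12.4 in LF controls and 22.8 to 27.6 in the other controls.

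The first question was what the HFCF diet did relative to continued HF feeding. The 7 members comprising the surface receptors Tlr1, Tlr2 and Tlr4, the endosomal receptors Tlr7, Tlr8 and Tlr9, and Cd14 rose with the HFCF diet in female controls and in male labelled knockouts. In female controls the folds ran from 2.63 for Tlr2 to 4.86 for Tlr9. Male controls showed 6 members higher, with folds from 1.19 (Myd88) to 2.55 (Tlr9), and female labelled knockouts showed 2, Tlr7 and Cd14. No member was lower in any of these 4 comparisons. Tlr5, the flagellin receptor, was called in none of them. Whole liver mixes cell types, so more cells of a type and more RNA per cell cannot be told apart. Called means an adjusted p under 0.05 in edgeR's quasi-likelihood test with Benjamini-Hochberg adjustment over all genes tested.

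Set against all genes, 6 of 10 members were called higher in male controls where 13.0% of genes were, and 8 of 10 in male labelled knockouts where 21.6% were. In female controls 7 of 10 were called higher against 16.9% of genes, and in female labelled knockouts 2 of 10 against 8.44%. The members' median log2 fold change was 0.74, 1.22, 1.63 and 0.98 in these 4 comparisons, whereas that of all genes lay between -0.02 and 0.01. In the same order, 9.31%, 20%, 13.8% and 6.01% of genes were called lower, and 0 members were. Non-overlap was judged on the livers themselves. All HFCF livers lay above all HF livers for 1 member in male controls (Myd88; 1.72% of all genes), 6 in male labelled knockouts (10.0%), 7 in female controls (14.8%) and 2 in female labelled knockouts (10.2%). No member lay wholly below, as 2.75%, 8.75%, 14.9% and 9.18% of genes did.

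**Figure D2:**
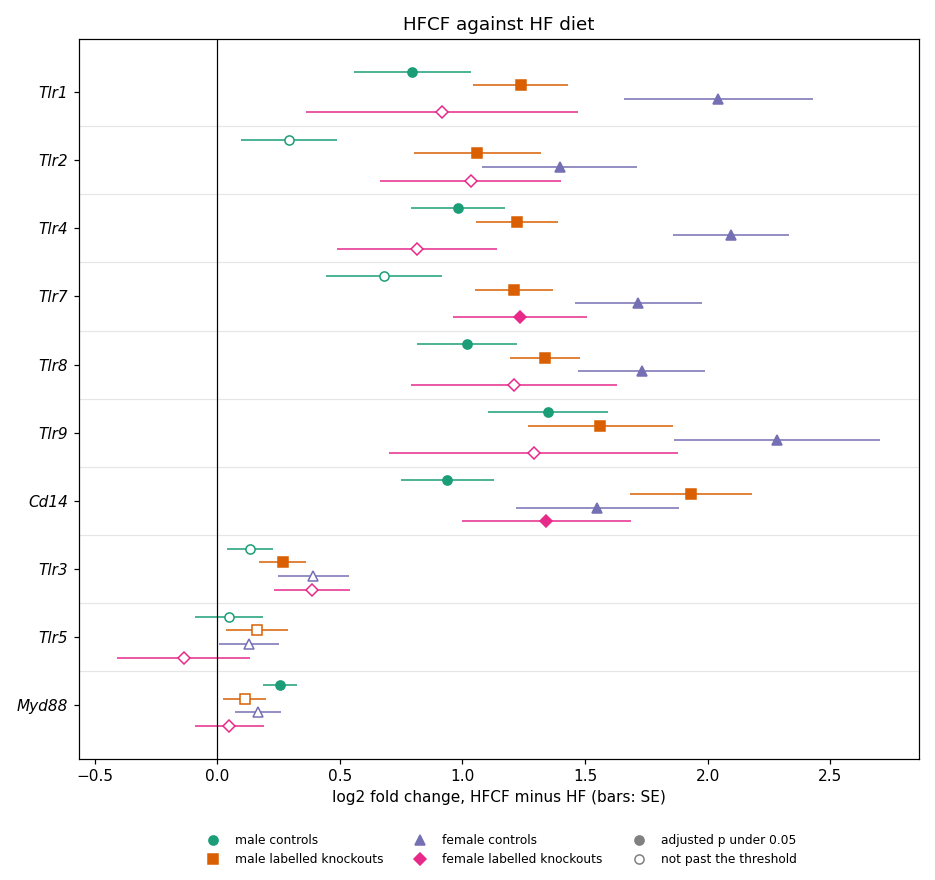
Log2 fold change of each gene, HFCF minus HF (horizontal axis, bars SE), in male and female controls and labelled knockouts; filled symbols passed the adjusted p of 0.05. The first 7 genes lie right of 0 in all 4 comparisons, with the largest value, 2.28, for Tlr9 in female controls, while Tlr5 and Myd88 stay between -0.14 and 0.25.

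Cd14 (ENSMUSG00000051439, GRCm38 chromosome 18, 36725074 to 36726736, minus strand) encodes the lipopolysaccharide co-receptor. In HF male controls its lowest, median and highest values were 5.52, 8.72 and 12.7 CPM, and in HFCF male controls 10, 18.7 and 20.4. Only HFCF control 1, the lowest of its group, fell within the HF range. In male labelled knockouts the corresponding values were 3.81, 4.95 and 6.04 on HF and 11, 16.7 and 32.4 CPM on HFCF, with no overlap. The log2 difference was 0.94 (SE 0.19, adjusted p 0.00362) by edgeR in male controls and 1.93 (SE 0.25, adjusted p 2.85e-05) in male labelled knockouts. Female controls measured 11.4, 3.67, 5.89 and 3.66 CPM on HF and 19.2, 18.5, 15.1 and 19 on HFCF. Female labelled knockouts measured 4.99, 3.57, 10.5 and 3.43 on HF and 12.5, 16.8, 11.6 and 17 on HFCF. The groups were again apart, although HF control 1 and HF labelled knockout 3 stood near the lowest HFCF livers. The female differences were 1.55 (SE 0.33, adjusted p 0.0107) and 1.34 (SE 0.34, adjusted p 0.029) by edgeR. Cd14 was called in all 4 comparisons and kept its call in every leave-one-out fit of 3 of them; in female labelled knockouts it was called in 2 of 8 such fits.

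Tlr2 (ENSMUSG00000027995, chromosome 3, 83836272 to 83841767, minus strand) recognises bacterial lipoproteins as a partner of TLR1 or TLR6. Its lowest, median and highest values in male controls were 7.65, 9.01 and 13.7 CPM on HF and 5.68, 12.7 and 14.9 on HFCF, and in male labelled knockouts 3.7, 4.64 and 11.1 and 6.45, 11.7 and 15.7. The ranges overlapped in both, since HFCF control 1 and HF labelled knockout 4 stood outside the rest of their groups. Tlr2 was not called in male controls, 0.29 (SE 0.20, adjusted p 0.303), and was in male labelled knockouts, 1.06 (SE 0.26, adjusted p 0.0042), by edgeR. Without HFCF control 1 the difference in male controls was 0.43 and passed the threshold (edgeR, adjusted p 0.0172). Female controls measured 8.84, 4.11, 5.64 and 2.54 on HF and 14.5, 16.3, 12.1 and 12.4 CPM on HFCF, with no overlap, a difference of 1.40 (SE 0.32, adjusted p 0.0127) by edgeR. In female labelled knockouts the livers measured 4.3, 4.1, 9.9 and 2.66 and 7.91, 13.3, 9.21 and 13.1 CPM, and HF labelled knockout 3 lay inside the HFCF range. That difference was 1.03 (SE 0.37, adjusted p 0.0882) by edgeR and did not pass. It was 1.57 (edgeR, adjusted p 0.00493) without HF labelled knockout 3 and 1.16 (edgeR, adjusted p 0.0472) without HFCF labelled knockout 1.

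Tlr1 (ENSMUSG00000044827, chromosome 5, 64924679 to 64933563, minus strand), the TLR2 partner for triacylated lipoproteins, had lowest, median and highest values of 2.47, 5.19 and 6.44 CPM on HF and 4.09, 9.4 and 10.8 on HFCF in male controls. In male labelled knockouts they were 2.21, 3.35 and 4.78 and 5.8, 7.41 and 10.9, which did not overlap. The differences were 0.80 (SE 0.24, adjusted p 0.0269) and 1.24 (SE 0.19, adjusted p 0.000137) by edgeR. The call in male controls held in 7 of 12 leave-one-out fits. In female controls Tlr1 measured 4.51, 1.93, 4.38 and 1.05 on HF and 10.4, 15.6, 11.3 and 11.3 CPM on HFCF, a difference of 2.04 (SE 0.39, adjusted p 0.00764) by edgeR. Female labelled knockouts measured 2.42, 1.99, 10.5 and 1.96 and 4.14, 11.3, 7.13 and 9.95. There HF labelled knockout 3, at 10.5 CPM, exceeded 3 of the 4 HFCF livers, and the difference was 0.92 (SE 0.55, adjusted p 0.298) by edgeR. Without that library it was 1.95 (edgeR, adjusted p 0.00665).

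Tlr4 (ENSMUSG00000039005, chromosome 4, 66827584 to 66930284, plus strand), the lipopolysaccharide receptor, had lowest, median and highest values of 2.18, 2.37 and 3.22 CPM on HF and 2.44, 5.24 and 6.02 on HFCF in male controls. Male labelled knockouts gave 1.32, 2.23 and 3.12 and 4.48, 5.52 and 5.77, and these did not overlap. Apart from HFCF control 1, the HFCF male controls also lay above all HF controls. The differences were 0.98 (SE 0.19, adjusted p 0.00325) and 1.22 (SE 0.17, adjusted p 4.86e-05) by edgeR. In female controls Tlr4 measured 1.68, 1.37, 1.75 and 1.12 on HF and 6.53, 7.8, 4.38 and 6.36 CPM on HFCF, a 4.27-fold difference with a log2 value of 2.10 (SE 0.24, adjusted p 0.00446) by edgeR. Female labelled knockouts measured 2.04, 1.72, 3.65 and 2.03 and 2.32, 5.02, 4.6 and 4.72, overlapping through HF labelled knockout 3 and HFCF labelled knockout 1. Their difference, 0.81 (SE 0.32, adjusted p 0.121) by edgeR, did not pass. It was 1.13 (edgeR, adjusted p 0.0312) without the first and 1.01 (edgeR, adjusted p 0.0222) without the second.

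Tlr7 (ENSMUSG00000044583, chromosome X, 167304929 to 167330558, minus strand) and its neighbour Tlr8 (ENSMUSG00000040522, chromosome X, 167242696 to 167264329, minus strand) sense single-stranded RNA. Tlr7 had lowest, median and highest values of 1.95, 3.93 and 5.39 CPM on HF and 3.36, 6.47 and 7.54 on HFCF in male controls, and of 2.36, 3.11 and 4.05 and 5.89, 6.89 and 9.23 in male labelled knockouts. The control ranges overlapped and the labelled-knockout ranges did not. By edgeR the differences were 0.68 (SE 0.24, adjusted p 0.0509), just outside the threshold, and 1.21 (SE 0.16, adjusted p 3.68e-05). Without HFCF control 1 the first was 0.80 (edgeR, adjusted p 0.00551). Female controls measured 4.28, 1.99, 3.19 and 2.29 on HF and 10.6, 10.7, 6.72 and 10.4 CPM on HFCF. Female labelled knockouts measured 2.95, 2.05, 3.7 and 2.59 and 3.92, 7.75, 7.37 and 7.59. Neither pair of groups overlapped, and the differences were 1.72 (SE 0.26, adjusted p 0.00546) and 1.24 (SE 0.27, adjusted p 0.0165) by edgeR; the second was called in 5 of 8 leave-one-out fits.

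Tlr8 had lowest, median and highest values of 2.43, 2.88 and 3.75 CPM on HF and 2.57, 6.43 and 6.88 on HFCF in male controls, where HFCF control 1 again stood inside the HF range. In male labelled knockouts they were 1.78, 2.22 and 2.52 and 4.64, 5.63 and 6.44, with no overlap. The differences were 1.02 (SE 0.21, adjusted p 0.00364) and 1.34 (SE 0.14, adjusted p 6.22e-06) by edgeR. Female controls measured 2.72, 1.87, 3.07 and 1.86 on HF and 6.78, 11, 5.75 and 7.69 CPM on HFCF, a difference of 1.73 (SE 0.26, adjusted p 0.00546) by edgeR. Female labelled knockouts measured 2.36, 1.92, 5 and 1.54 and 2.97, 7.9, 5.84 and 8.62, which overlapped, with a difference of 1.21 (SE 0.42, adjusted p 0.0815) by edgeR that did not pass. It was 1.72 (edgeR, adjusted p 0.0134) without HF labelled knockout 3 and 1.44 (edgeR, adjusted p 0.0183) without HFCF labelled knockout 1.

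Tlr9 (ENSMUSG00000045322, chromosome 9, 106222598 to 106226883, plus strand), the receptor for unmethylated CpG DNA, had the largest fold of all members in both control comparisons. Its lowest, median and highest values in male controls were 0.962, 1.76 and 2.17 CPM on HF and 2.02, 4.3 and 5.26 on HFCF, and in male labelled knockouts 0.608, 1.08 and 2.2 and 2.29, 3.82 and 5.38. Here the control ranges met at HFCF control 1, and the labelled-knockout ranges did not overlap. The differences were 1.35 (SE 0.24, adjusted p 0.00233) and 1.56 (SE 0.29, adjusted p 0.000661) by edgeR. In female controls Tlr9 measured 2.14, 0.436, 0.626 and 0.682 on HF and 5.04, 5.29, 4.48 and 4.17 CPM on HFCF. HF control 1 was the highest of its group, and every HFCF value was above it. The difference was 2.28 (SE 0.42, adjusted p 0.00712) by edgeR, a 4.86-fold rise, and without that library 3.04. Female labelled knockouts measured 1.07, 0.463, 2.4 and 0.489 and 0.871, 4.08, 2.28 and 3.9, with a difference of 1.29 (SE 0.59, adjusted p 0.172) by edgeR that did not pass. It was 2.03 (edgeR, adjusted p 0.0352) without HF labelled knockout 3 and 1.58 (edgeR, adjusted p 0.0487) without HFCF labelled knockout 1.

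Tlr3 (ENSMUSG00000031639, chromosome 8, 45395665 to 45411080, minus strand), the receptor for double-stranded RNA, moved less. Its range over all libraries was 7.55 to 15.3 CPM. The HFCF minus HF difference was 0.27 (SE 0.09, adjusted p 0.0337) in male labelled knockouts, the only one of the 4 called by edgeR, and it held in 5 of 12 leave-one-out fits. The other differences were 0.13 in male controls, 0.39 in female controls and 0.38 in female labelled knockouts. The third was 0.49 (edgeR, adjusted p 0.0193) without female HF control 1, and the fourth 0.46 (edgeR, adjusted p 0.0388) without HFCF labelled knockout 1. The overlapping gene Gm45542 held at most 2 reads in a library.

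Myd88 (ENSMUSG00000032508, chromosome 9, 119335934 to 119341411, minus strand), the adaptor shared by most TLRs, ranged from 14.3 to 24.7 CPM. Its values in HF male controls, 15.9 to 19.1 CPM, lay just below those on HFCF, 19.1 to 23.4. That difference was 0.25 (SE 0.07, adjusted p 0.0177) by edgeR. Its edgeR adjusted p reached 0.0576 among the alternatives. Elsewhere the differences were 0.11, 0.17 and 0.05, none called. The Myd88 interval overlaps Slc22a14 and, on the opposite strand, Acaa1a, which held up to 7943 reads in a library. Since the libraries keep no strand, reads of the overlapping genes cannot be told apart and the Myd88 values are uncertain. Acaa1a averaged 338 ± 19.8 CPM in HF and 310 ± 64.5 in HFCF male controls and was not called there (log2 -0.12, edgeR, adjusted p 0.463).

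In the order of group means, the 4 HFCF groups were the highest 4 for Tlr1, Tlr2, Tlr3, Tlr4, Tlr7, Tlr8, Tlr9 and Cd14. The step up to them was larger than the SD of both neighbouring groups for Tlr1, Tlr4, Tlr7, Tlr8 and Cd14, but not for Tlr9 or for Tlr2, whose HF male controls (9.78 ± 2.24 CPM) stood near female HFCF labelled knockouts (10.9 ± 2.72). For Tlr3 the step ran from 11.8 ± 1.32 CPM in HF male controls to 11.9 ± 1.56 in female HFCF labelled knockouts. Neighbours among the 6 LF and HF groups differed by less than the larger SD for all 7 diet-responsive members except Tlr2. There HF male controls stood above HF male labelled knockouts. For Myd88 no neighbours differed by more than the larger SD.

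Tlr5 (ENSMUSG00000079164, chromosome 1, 182954788 to 182976044, plus strand) did not follow the other receptors from the HF to the HFCF diet. The HFCF minus HF difference was 0.05 (SE 0.14) in male controls, 0.16 (0.13) in male labelled knockouts, 0.13 (0.12) in female controls and -0.14 (0.27) in female labelled knockouts. None was called by edgeR. With library totals alone as the scaling, the difference in male labelled knockouts was 0.37 and was called.

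In female labelled knockouts the number of members called moved most with single libraries. Of the 8 leave-one-out fits, those without HF labelled knockout 3 and without HFCF labelled knockout 1 each called 7 members, and the other 6 called 0 or 1. Without both, a choice made after the data were seen, 8 of 10 were called. That fit called 2968 of 14855 genes higher and 2465 lower, against 1237 of 14650 and 881 with all libraries. The shares of all genes in the leave-one-out fits are not given here. HF labelled knockout 3 had 699.9 summed CPM of macrophage and leukocyte markers, against 236 to 341 in the other 3, and 106 of neutrophil markers against 6.29 to 8.65. Its lipid-associated macrophage sum, 73.6, was the lowest of its group. Spp1 was the largest part of that sum over all 48 livers, with a mean of 217 CPM against 10.7 to 30.8 for the other markers. HFCF labelled knockout 1 had 306 CPM of lipid-associated macrophage markers, against 616 to 652 in the rest of its group. It had 627 of macrophage and leukocyte markers against 732 to 961, and 102555 of hepatocyte markers against 57387 to 73183. Its resident Kupffer cell sum, 582, was the highest of its group. In male controls the fit without HFCF control 1 called 8 members. That library had 214 CPM of lipid-associated macrophage markers against 601 to 713 in the other 5. In female controls the fit without HF control 1 called 8, and that library had 325 CPM of the same markers against 43.8 to 86.2.

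All 9 macrophage and leukocyte markers (Ptprc, Adgre1, Cd68, Csf1r, Lyz2, Itgam, Mpeg1, Cx3cr1 and Ccr2) were called higher on HFCF in male controls, male labelled knockouts and female controls, and 4 of 9 in female labelled knockouts. Their summed level went from 312 to 480.4 CPM in HF male controls to 488 to 1018 on HFCF, and from 202 to 451 to 885 to 1195 in female controls. Markers of lipid-associated macrophages (Gpnmb, Trem2, Spp1, Cd9 and Mmp12), a state of recruited macrophages in fatty liver, were called higher 5 of 5 in all 4 comparisons. Of 6 resident Kupffer cell markers, 2, 3, 2 and 1 were called higher in male controls, male labelled knockouts, female controls and female labelled knockouts, and 0, 2, 0 and 0 lower. Their sum went from 225 to 409 to 469 to 601 CPM in female controls, without overlap. Bile duct markers, which share Spp1, were higher 5 of 5 in all 4, and 3, 4, 4 and 0 of 4 hepatocyte markers were lower. B cell markers summed to 4.71 to 7.69 CPM in HF and 3.74 to 7.83 in HFCF female controls. The plasmacytoid dendritic cell list went from 3.66 to 45.4 to 66.6 to 140.2 CPM in the same groups without overlap. Most of it was Ly6d, and Siglech, the defining marker, stayed at or below 1.96 CPM in every library. Neutrophil markers went from 3.66 to 9.83 to 11.9 to 32.1 CPM without overlap, with Ly6g at or below 0.385. Sinusoidal endothelium (212 to 294 to 337 to 391 CPM) and T cell markers (2.48 to 3.38 to 3.92 to 7.1) were also higher without overlap in female controls. In the order of comparisons above, 1, 2, 5 and 1 of 6 sinusoidal, 2, 3, 1 and 4 of 5 stellate cell, 1, 3, 1 and 0 of 3 tested neutrophil, 0, 2, 0 and 0 of 5 B cell and 0, 1, 0 and 0 of 5 T cell markers were called higher. In the same order 13.0%, 21.6%, 16.9% and 8.44% of all genes were called higher, and several of these counts are near those shares. The part of each cell type in the members' rise was not tested.

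The 7 diet-responsive members, summed, ran from 13.2 to 85.1 CPM over the 48 livers. Per 100 CPM of the 9 macrophage and leukocyte markers the same sum ran from 5.24 to 9.61. The 7 were grouped after their values were seen, and the markers rose in the same comparisons, so a narrower range is partly built in. The part of cell numbers in the ratio was not tested. The median ratio was 6.77 in HF and 7.27 in HFCF female controls, and 8.6 and 7.05 in male controls. Male HFCF control 1, with 30.2 CPM of the members and 488 of the markers, and female HF labelled knockout 3, with 45.7 and 699.9, were out of line with their groups in both sums. HF male labelled knockouts had the lowest median ratio, 5.66.

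**Figure D3:**
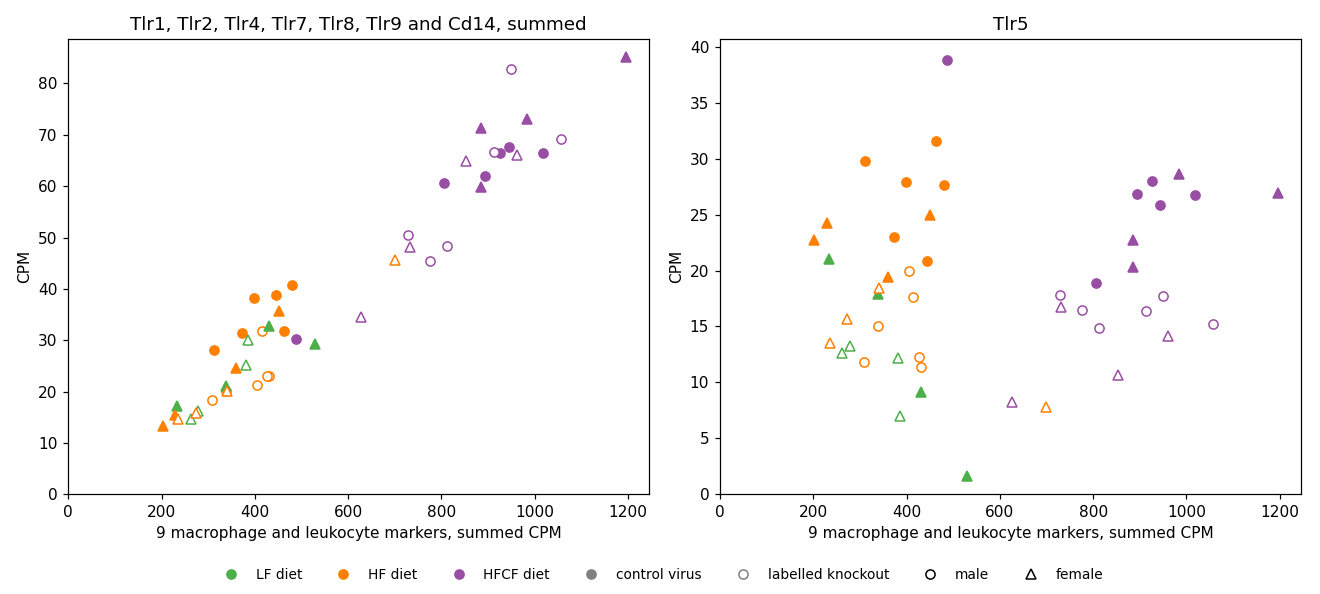
Each point is 1 liver; the horizontal axes give the summed CPM of 9 macrophage and leukocyte markers, and the vertical axes the summed CPM of 7 members (left) and the CPM of Tlr5 (right), all linear from 0. The 7 members lie along a band from 13.2 to 85.1 CPM as the markers increase, while Tlr5 shows no such band and most open symbols (labelled knockout) lie below the filled ones.

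The other TLR genes were read from lists chosen with earlier results of these data known. In the 4 comparisons 13.0%, 21.6%, 16.9% and 8.44% of all genes were called higher. Called lower were 9.31%, 20%, 13.8% and 6.01%. Of 8 other receptors and co-receptors tested in male controls, 3 were called higher and 1 lower on HFCF. In male labelled knockouts 7 of 9 were higher and 1 lower, in female controls 4 of 8 were higher, and in female labelled knockouts 1 of 9 was. Tlr13, which senses bacterial ribosomal RNA, had log2 differences of 1.40 (SE 0.22), 1.64 (SE 0.13) and 1.97 (SE 0.34) in the first 3 comparisons by edgeR, from 3.03 ± 1.58 to 11.8 ± 3.14 CPM in female controls. Cd180 and its partner Ly86, a TLR4-like pair, moved by 1.66 (SE 0.31) and 1.74 (SE 0.27) in female controls. Tlr6, the other TLR2 partner, was higher by 1.31 (SE 0.34) in female controls and 0.59 (SE 0.23) in male labelled knockouts. Tlr12, a profilin receptor, was higher in both labelled-knockout comparisons, by 0.74 (SE 0.12) and 0.99 (SE 0.18). The hepatocyte-secreted lipopolysaccharide-binding protein Lbp fell in male controls, with a difference of -0.37 (SE 0.09).

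Among 8 genes that fold, traffic and cleave TLRs, 4, 3, 4 and 2 were called higher in the 4 comparisons and 0, 2, 0 and 1 lower. Ctss (cathepsin S) and Lgmn (legumain) were higher in all 4 comparisons: Ctss went from 46.6 ± 18.3 to 157 ± 36.5 CPM in female controls, a log2 difference of 1.76 (SE 0.27), and Lgmn differed by 1.26 (SE 0.20). Unc93b1, which carries endosomal TLRs out of the endoplasmic reticulum, was higher by 0.53 (SE 0.09) in male controls, 0.45 (SE 0.09) in male labelled knockouts and 0.69 (SE 0.08) in female controls. The chaperones Hsp90b1 and Cnpy3 fell in male labelled knockouts, with differences of -0.62 (SE 0.09) and -0.30 (SE 0.06). The list medians, 0.18, 0.13, 0.31 and 0.29, were lower than those of the members.

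Of 17 or 18 adaptors, kinases and ubiquitin ligases tested, 1 was called higher in male controls. In male labelled knockouts 4 were higher and 2 lower, in female controls 4 higher and 2 lower, and in female labelled knockouts 1 lower. List medians were 0.03, 0.03, 0.06 and -0.02. Of all genes, 13.0%, 21.6%, 16.9% and 8.44% were called higher and 9.31%, 20%, 13.8% and 6.01% lower. The counts of this list lie near or below those shares, so they do not set it apart from all genes. Pik3ap1, the B cell adaptor for PI3K, was higher in the first 3, by 0.87 (SE 0.21) in female controls. Ticam2, the TRIF-related bridging adaptor of TLR4, was higher by 1.67 (SE 0.33) in female controls, from 0.323 ± 0.0999 to 1.02 ± 0.204 CPM. Chuk, a kinase that activates NF-kappaB, had log2 differences of -0.30 (SE 0.07) in male labelled knockouts, -0.43 (SE 0.08) in female controls and -0.47 (SE 0.10) in female labelled knockouts. Of 11 transcription factors, 4, 7, 7 and 2 were called higher and 0, 1, 1 and 0 lower. Relb, an NF-kappaB subunit, differed by 0.73 (SE 0.18), 1.30 (SE 0.27) and 1.48 (SE 0.30) in the first 3, and Irf5 and Irf8, factors of myeloid cells, by 1.22 (SE 0.19) and 1.14 (SE 0.19) in female controls.

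Inhibitors of the pathway split in direction. Tnfaip3 (A20), an inhibitor induced by NF-kappaB, was higher by 1.19 (SE 0.16) in male labelled knockouts and 1.12 (SE 0.23) in female controls, and Irak3, an inhibitory IRAK kinase, by 1.12 (SE 0.29) and 1.08 (SE 0.31). Sigirr and Tollip, which dampen TLR signalling, had differences of -0.26 (SE 0.07) and -0.25 (SE 0.05) in male controls. Of 11 TLR-induced cytokines and enzymes tested in the first 3 comparisons, 1, 7 and 7 were called higher, and 1 of 10 in female labelled knockouts; none was lower. The monocyte chemokine Ccl2 was higher in all 4, from 1.72 ± 0.829 to 5.14 ± 2.003 CPM in female controls, a log2 difference of 1.59 (SE 0.39). Tnf differed by 1.71 (SE 0.29) and 1.23 (SE 0.26) and Il1b by 0.96 (SE 0.28) and 1.28 (SE 0.30) in male labelled knockouts and female controls, all at means under 7 CPM.

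Females also gave the comparison of HF and HFCF with the LF diet. HF and LF livers differed in 0 members by edgeR, in controls and in labelled knockouts. At an unadjusted p under 0.05 there were 2 in controls (Tlr4 and Myd88) and 0 in labelled knockouts, and the DESeq2 Wald test called 0 in both. The background at the adjusted threshold was low too. It was 0.443% of genes higher and 0.253% lower in controls, and 0.0704% and 0.0844% in labelled knockouts. The share of genes at an unadjusted p under 0.05 is not given here. Tlr4 measured 2.71, 3.25, 2.17 and 2.34 CPM in LF controls and 1.68, 1.37, 1.75 and 1.12 in HF controls, so that every HF value was below every LF value, with a log2 difference of -0.82 (edgeR, adjusted p 0.159). Myd88 was also lower without overlap, at 14.7, 16.1, 15.6 and 16.5 against 16.8, 20.9, 19.4 and 20.6 CPM (4.14% of genes did so). No member was higher without overlap in controls (5.88% of genes) or in labelled knockouts (4.22%). Tlr5 averaged 12.4 ± 8.76 CPM in LF controls and 22.8 ± 2.47 in HF controls. These groups overlapped, and the wide LF spread leaves that difference imprecise.

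HFCF against LF gave 7 members higher in controls, the same 7 as against HF, where 18.4% of genes were higher, and 6 in labelled knockouts, where 8.26% were. The 2 comparisons of a virus group share their HFCF livers, so they are not independent. Against LF, the control differences ran from 1.24 (SE 0.22, adjusted p 0.00242) for Tlr4 to 1.64 (SE 0.32, adjusted p 0.00427) for Tlr8 by edgeR. All HFCF livers lay above all LF livers for the 7 members in controls (18.3% of genes) and for Tlr2 and Cd14 in labelled knockouts (10.2%). LF controls measured 1.67, 4.1, 2.77 and 1.47 CPM for Tlr8 and 5.36, 8.45, 4.63 and 4.46 for Cd14. Labelled knockouts on LF measured 5.73, 3.87, 3.74 and 9.06 for Cd14, and its difference to HFCF was 1.39 (SE 0.28, adjusted p 0.00996) by edgeR. Tlr9, at 1.31 (SE 0.46, adjusted p 0.085), was the diet-responsive member that did not pass there. The labelled-knockout count was 7 without HFCF labelled knockout 1 and 1 without HFCF labelled knockout 2 or 4.

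The second question was the effect of the virus label within a diet. Tlr5, which recognises bacterial flagellin, was lower in male labelled knockouts, at 0.547 times the control level on HF and 0.599 times on HFCF. In HF males Tlr2 and Cd14 were lower as well, at 0.573 and 0.535 times the control level. No member was called in females on any diet, and none was called higher anywhere. These directions rest on the label alone, which a whole-gene count of Pparg RNA cannot check.

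Tlr5 in HF males had lowest, median and highest values of 20.8, 27.8 and 31.5 CPM in controls and 11.3, 13.7 and 20 in labelled knockouts. In HFCF males they were 18.9, 26.8 and 38.8 and 14.9, 16.4 and 17.8. Every labelled knockout lay below every control on both diets, with the HFCF labelled knockouts packed within 3 CPM of one another. The means were 26.8 ± 4.09 against 14.7 ± 3.5 on HF and 27.6 ± 6.43 against 16.4 ± 1.23 on HFCF (SD, n = 6). The log2 differences were -0.87 (SE 0.14, adjusted p 0.000554) and -0.74 (SE 0.13, adjusted p 0.00613) by edgeR, and both were called in 12 of 12 leave-one-out fits, over ranges of -0.98 to -0.81 and -0.83 to -0.62. HFCF control 1 held the highest Tlr5, 38.8 CPM.

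Females on HF measured 25, 24.3, 19.4 and 22.7 CPM of Tlr5 in controls and 18.4, 15.7, 7.84 and 13.6 in labelled knockouts. On HFCF they measured 28.6, 26.9, 22.7 and 20.3 and 8.27, 14.2, 16.8 and 10.6. Again no labelled knockout reached the lowest control on either diet. The log2 differences were -0.71 (SE 0.21, adjusted p 0.567) and -0.95 (SE 0.20, adjusted p 0.208) by edgeR, neither of them called. The DESeq2 Wald test called the HFCF difference (-0.95, adjusted p 0.00329), as did the authors' deposited table (adjusted p 0.00292) and edgeR with no filter on low counts. Over the alternatives the adjusted p ran from 0.00329 to 0.722. Without HF labelled knockout 3 the HF difference was -0.52.

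On the LF diet Tlr5 measured 1.67, 9.1, 17.9 and 21 CPM in controls and 12.2, 13.2, 12.6 and 6.97 in labelled knockouts. Here the groups overlapped widely, and control 1 was the lowest of all 48 livers. That liver had the highest macrophage and leukocyte sum of its group, 529.9 CPM, and also the highest hepatocyte sum. The difference was -0.13 (SE 0.53, adjusted p 0.9996) by edgeR, and leave-one-out values ran from -0.49 to 0.25, so its direction was not settled. The LF control mean, 12.4 ± 8.76 CPM, was 16 ± 6.17 without control 1 (n = 3).

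In order of group means, the 5 labelled-knockout groups and the LF controls came below the 4 control groups on HF or HFCF. The one gap larger than the SD of both neighbours was between HFCF male labelled knockouts (16.4 ± 1.23 CPM) and HF female controls (22.8 ± 2.47). Neighbours within either set differed by less than their SD.

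**Figure D4:**
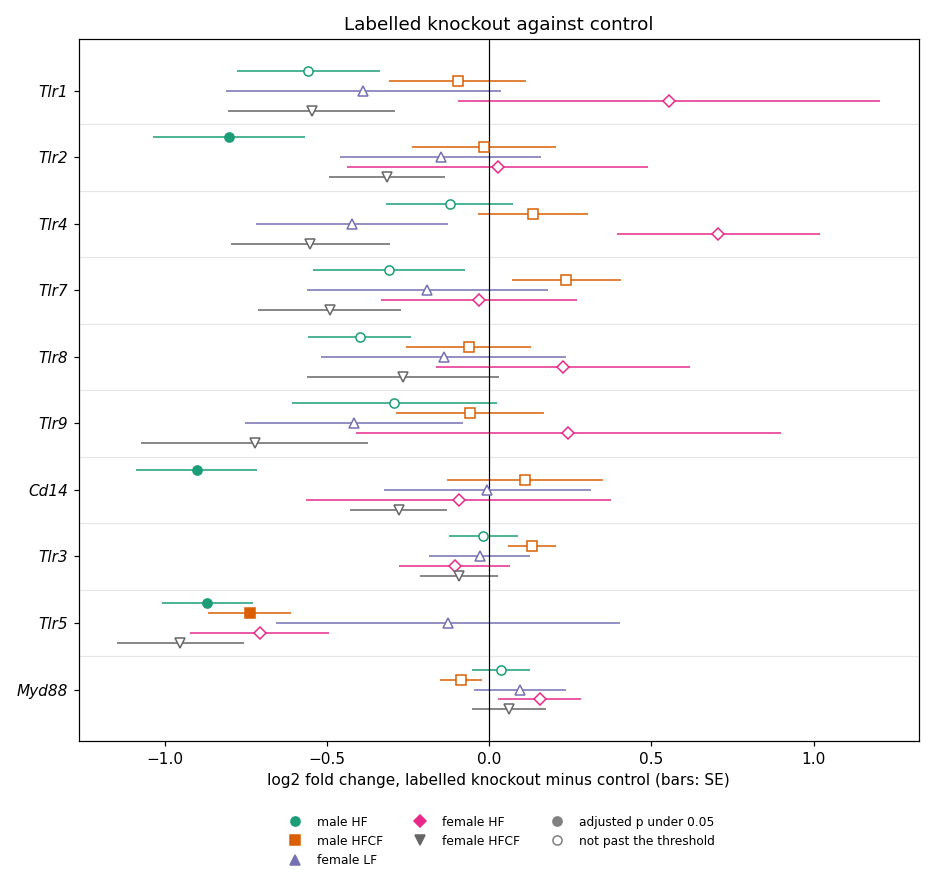
Log2 fold change of each gene, labelled knockout minus control (horizontal axis, bars SE), in 5 sex and diet groups; filled symbols passed the adjusted p of 0.05. Tlr5 lies between -0.95 and -0.71 in 4 of the groups and at -0.13 in LF females, and the other filled symbols are Tlr2 and Cd14 in HF males.

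Against the background, 3 of 10 members were called lower in HF males, where 9.88% of genes were, and 1 of 10 in HFCF males, where 1.27% were. The members' median log2 difference was -0.35 and -0.04, and that of all genes 0.00 and -0.01. Non-overlapping lower values were seen for Tlr5 alone in HF males (4.24% of genes), HFCF males (1.5%) and HF females (3.74%), and for Tlr5 and Tlr9 in HFCF females (3.46%). In LF, HF and HFCF females edgeR called 0 members and 0.0%, 0.0% and 0.0467% of genes lower. At an unadjusted p under 0.05 there were 0, 2 and 3 members, and the DESeq2 Wald test called 0, 0 and 1. The shares of genes here are at edgeR's adjusted threshold and give no background for those counts. No member was called higher, where 8.57% of genes were in HF males, 0.933% in HFCF males, and 0.0%, 0.0% and 0.00668% in LF, HF and HFCF females. Nor did any lie wholly above the controls in HF males (3.64% of genes), HFCF males (0.851%), or LF, HF and HFCF females (0.644%, 1.7% and 2.13%).

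Cd14 in HF males showed the second difference: controls had lowest, median and highest values of 5.52, 8.72 and 12.7 CPM and labelled knockouts 3.81, 4.95 and 6.04. A single control, HF control 4 at 5.52 CPM, lay within the labelled-knockout range, and the other 5 lay above it. The log2 difference was -0.90 (SE 0.19, adjusted p 0.00332) by edgeR and held in all 12 leave-one-out fits. For Tlr2 the ranges above overlapped through labelled knockout 4, 11.1 CPM, with the other 5 at or below 5.4. Its difference was -0.80 (SE 0.23, adjusted p 0.0254) by edgeR, called in 7 of 12 leave-one-out fits, and -1.12 without labelled knockout 4. The values on HFCF were 0.11 for Cd14 and -0.02 for Tlr2.

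Cell markers were read beside these values. In HF males 9.88% of all genes were called lower in labelled knockouts and 8.57% higher, and in HFCF males 1.27% and 0.933%. A count of 1 called marker in a list is not read as a change of its cell type. In HF males 4 of 5 lipid-associated macrophage markers were called lower in labelled knockouts, with sums of 132 to 259.7 CPM in controls and 62.1 to 146 in labelled knockouts. Of 9 macrophage and leukocyte markers 1 was lower, and their sums, 312 to 480.4 and 308 to 431 CPM, overlapped. Of 4 hepatocyte markers 3 were higher, and of 5 red blood cell markers 3 were, the latter with sums of 166 to 247 and 164 to 817 CPM. The hepatocyte sums, 56848 to 80123 and 81445 to 96361 CPM, did not overlap. Nor did those of the plasmacytoid dendritic cell list, 20.5 to 57.5 and 1.95 to 7.42 CPM, of which 1 of 2 tested genes was lower; most of that sum was Ly6d. Biliary sums were 107 to 217 and 58.8 to 121 CPM, with 1 of 5 markers lower. Spp1, shared with the lipid-associated macrophage list, averaged 217 CPM over the 48 livers and the other bile duct markers 2.69 to 12.5. The 2 sums are therefore largely the same gene. Of other lists, 2 of 6 sinusoidal endothelium, 2 of 5 stellate cell and 1 of 5 B cell markers were lower. Of 6 Kupffer cell and 3 tested T cell markers 1 each was higher, and of 3 tested neutrophil markers 0 were called. In HFCF males 0 of 9, 0 of 5 and 0 of 4 of the leukocyte, lipid-associated macrophage and hepatocyte markers were called. The leukocyte sums there were 488 to 1018 CPM in controls and 729 to 1057 in labelled knockouts. The part of these cell types was not tested.

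The lists stand against 9.88% of all genes called lower and 8.57% called higher in HF male labelled knockouts. Of 11 transcription factors downstream of TLRs, 3 were lower there. Relb had a log2 difference of -0.87 (SE 0.23), Nfkb2 of -0.60 (SE 0.11) and Jun of -0.85 (SE 0.23). The interferon regulatory factors Irf3, at 0.36 (SE 0.06), and Irf7, at 0.77 (SE 0.22), were higher. Among 8 inhibitors Tnfaip3, at -0.90 (SE 0.13), and Irak3, at -0.81 (SE 0.20), were lower and Sigirr, at 0.32 (SE 0.07), was higher. Of 9 tested cytokines and enzymes 3 were lower, namely Ccl2 at -1.20 (SE 0.26), Ccl3 at -1.12 (SE 0.35) and the adhesion molecule Icam1 at -0.39 (SE 0.12). The fatty acid transporter and TLR2 co-receptor Cd36, a known PPARγ target, went from 320.4 ± 27.9 to 186 ± 53.9 CPM, and Tlr12 differed by -0.61 (SE 0.13). In HFCF males the 6 lists of pathway genes held 1 call, Cnpy3, at -0.34 (SE 0.06). In females they held 0 calls by edgeR on each diet.

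Whether an effect differed between groups was tested by interaction. Among the 10 members 0 were called by edgeR in any of the 6 interactions, and 0 by the DESeq2 Wald test. At an unadjusted p under 0.05 there were 2 for the label effect between diets in males (Tlr2 and Cd14), 1 in females (Tlr4) and 5 for the diet effect between sexes in controls. For the diet effect between sexes in labelled knockouts there were 0, and for the label effect between sexes 1 on HF and 2 on HFCF. At the adjusted threshold and with all libraries, between 0.0% and 0.987% of all genes were called in a direction of an interaction. The share at an unadjusted p under 0.05 is not given here. The diet effect in male minus female controls was -1.24 for Tlr1, -1.11 for Tlr4 and -1.10 for Tlr2 on the log2 scale (edgeR, adjusted p 0.223, 0.178 and 0.214). Without female HF control 1 that interaction called 6 members. The share of all genes called in that fit is not given here, so the 6 are not set against a background. For Cd14 the diet effect in male labelled knockouts minus that in male controls was 0.99 (edgeR, adjusted p 0.111). For Tlr5 the label effect in males minus females was -0.15 (SE 0.26) on HF and 0.22 (SE 0.23) on HFCF, and HFCF minus HF it was 0.11 (SE 0.20) in males and -0.25 (SE 0.31) in females. A difference of Tlr5 between sexes or between these diets was thus not shown at this size of study.

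The genes most like each member were listed by Pearson's r of log2 CPM over the 48 libraries, beside r after group means were subtracted. The libraries share diet groups, so these values describe likeness only. Tlr1 was most like Sirpa (0.952 and 0.938), Myo1f (0.948 and 0.929) and Evl (0.947 and 0.893). Tlr2 was nearest to Relb (0.945 and 0.885), Nfkb2 (0.935 and 0.808) and Clip2 (0.924 and 0.793), the first 2 being NF-kappaB subunits. For Tlr4 they were Rab31 (0.935 and 0.806), Axl (0.933 and 0.769) and Cybb (0.932 and 0.777), for Tlr7 Axl (0.927 and 0.76), Nckap1l (0.927 and 0.772) and Abcg3 (0.92 and 0.807) and for Tlr8 Cybb (0.949 and 0.843), Axl (0.946 and 0.823) and Nckap1l (0.945 and 0.834). Cybb encodes the phagocyte NADPH oxidase subunit, and Axl a receptor for dying cells. Tlr9 was nearest to Rab8b (0.935 and 0.826), Nedd9 (0.919 and 0.759) and Iqgap1 (0.917 and 0.791), and Cd14 to Arhgef2 (0.941 and 0.794), Ckap4 (0.94 and 0.799) and Gnai2 (0.93 and 0.763). Tlr3 was most like Mpeg1 (0.835 and 0.702), Tprn (0.826 and 0.577) and Gpr35 (0.824 and 0.721). Tlr5 had other neighbours, Myo5b (0.826 and 0.732), Tdrp (0.823 and 0.787) and Entpd5 (0.819 and 0.725), and Myd88 weaker ones, Atp6v0e (0.572 and 0.653), Smagp (0.57 and 0.37) and Socs3 (0.566 and 0.43). With group means subtracted, r among the 7 diet-responsive members was 0.466 to 0.809 over 21 pairs. Between Tlr3 and those 7 it was 0.415 to 0.651, which largely falls in the same range. For Myd88 with the 7 it was -0.0134 to 0.385, and for Tlr5 -0.459 to -0.0931.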

How the data were processed

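Whole-liver RNA-seq of 48 mice was deposited as 11 tables of the authors' own comparisons, each with a raw read count per gene and library. Per the submitters' processing notes, STAR 2.6.1, HTSeq 0.6.1, DESeq2 2 and the GRCm38 (mm10) genome were used. Their roles are not given in the sources used here, and libraries were not strand specific per the labels. The deposited log2 fold changes and p-values are the authors' own, and of these the adjusted p of Tlr5 in HFCF females is quoted. The tables were joined by gene identifier into 29221 genes, and the 1341082 values held in more than 1 table were compared, with 0 differing. Every listed gene held at least 2 reads over the libraries of its table.

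Counts were scaled by TMM and tested with edgeR 4.0.16 (quasi-likelihood, filterByExpr with a minimum count of 10, R 4.3.3) on the 2 groups of a comparison, or on 4 for an interaction. P-values were adjusted over all genes tested by the Benjamini-Hochberg method, with a threshold of 0.05. The standard error is the size of the log2 fold change divided by the square root of F. CPM uses TMM over all 48 libraries, and gene length for CPM per kb is the deposited one. Tests ran on simulated data first. The 10 genes and all pathway and marker lists were chosen with earlier results of these data known. Of 160 list genes 155 were found. From each list and comparison at most 6 called genes were eligible for naming, those with the largest fold change, and the 3 protein-coding genes most like each member were named. Alternatives were DESeq2 1.42.0 size factors and Wald test, library totals alone, no filter, at least 10 counts in every library, all groups of a sex in 1 fit, a replicate block, and leaving out each library.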

Additional observations from a re-analysis of the deposited data

Results flagged for a closer look

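In 14 of the 100 sets of values (10 genes in 10 groups) the highest or lowest liver stood apart from its group by Dixon's criterion. Chance flags about 1 in 20 independent groups, but these sets are not independent, since r among the 7 diet-responsive members was 0.770 to 0.906 over the 48 libraries and 9 of the 14 came from 3 libraries. The 14 is therefore a count and is not compared with that share. Male HFCF control 1 was low in 5 of them, with 5.68 CPM of Tlr2, 2.44 of Tlr4, 3.36 of Tlr7, 2.57 of Tlr8 and 10.02 of Cd14. Female HF labelled knockout 3 was high for Tlr1, at 10.5 CPM against 1.96 to 2.42 in the others, and for Tlr4, at 3.65. Female HFCF labelled knockout 1 was low for Tlr4, at 2.32 CPM, and Tlr7, at 3.92.

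The other 5 came from single livers. Male HF labelled knockout 4 had 11.1 CPM of Tlr2, and male HFCF control 4 had 15.3 of Tlr3. Female HF control 1 had 2.14 CPM of Tlr9 against 0.436 to 0.682. Female HFCF control 3 had 6.72 CPM of Tlr7, the lowest of its group. Female LF labelled knockout 4 had 6.97 CPM of Tlr5, the lowest of its group.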

How the results depend on the processing

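No member's call reversed in direction under any alternative run. Leaving out 1 library at a time, the number of members called for HFCF minus HF ran from 5 to 8 in male controls, 7 to 8 in male labelled knockouts, 7 to 8 in female controls and 0 to 7 in female labelled knockouts. For HFCF minus LF it ran from 7 to 8 in controls and from 1 to 7 in labelled knockouts, where it was 2 without LF labelled knockout 2. For the label effect it ran from 2 to 4 in HF males, stayed at 1 in HFCF males and at 0 in females on each diet. The sex difference of the diet effect in controls ran from 0 to 6, and the other 5 interactions stayed at 0. Shares of all genes called in these leave-one-out fits are not given here, so the counts are not set against a background. In female labelled knockouts the HFCF minus HF count was 4 by the DESeq2 Wald test and 5 with all female groups in 1 fit. It was 8 without both HF labelled knockout 3 and HFCF labelled knockout 1, an alternative chosen after seeing the data. That last fit called 5433 of 14855 genes. For the label effect in HFCF females it was 1 by the Wald test and 1 with no filter. With the replicate block, the count for HFCF minus HF in female controls was 0, and the Myd88 adjusted p in male controls was 0.0576. The replicate numbers do not show pairing: over 57 same-numbered pairs, r of deviations ran from -0.323 to 0.576, 10 correlated best with their own number, and in 0 of 13 comparisons was every r over 0.1. Tlr9 had as few as 7 reads in a library, which limits its precision.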
